A study of Mus musculus with 6 samples.

Results

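Transcripts of 9 marker genes of T, NK and B lymphocytes were compared between the livers of L1-Tg and WT mice. The genes were chosen by name, by a rule that used no measured value, but with earlier results of these data known. They were Cd3e, Cd3d, Cd4 and Cd8a for T cells, Nkg7, Gzma and Klrb1c for NK and cytotoxic cells, and Cd79a and Cd79b for B cells. Every non-control probe whose RefSeq accession belongs to one of them was taken, which gave 13 of the 55681 distinct probes on the array and 9 of its 37074 genes. Of the 9 genes 8 were bright enough to be tested, and Klrb1c was not.

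Total hepatic RNA of male mice was hybridised to 1-colour (Cy3) Agilent mouse expression arrays, 3 for each genotype, and each array received RNA pooled from 2 or 3 mice. L1-Tg mice were hemizygous for a human NPC1L1 transgene that the APOE promoter drives in hepatocytes. They came from a single line, B6;D2-Tg(APOE-NPC1L1)20Lqyu/J, crossed back to C57BL/6J for 8 or more generations, and WT mice were littermates without the transgene. NPC1L1 is a sterol transporter that the human liver expresses and the mouse liver barely does. As the study describes them, mice of both genotypes on these arrays ate a control fat diet (CFD), and its animals were 6 to 12 weeks old. The comparison addressed the basal hepatic gene expression of the 2 genotypes, before any high-fat feeding. Pooling hides the spread between single mice, so the p-values below measure the spread between pools.

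T lymphocytes recognise antigen through a receptor that signals via the CD3 chains, among them CD3 epsilon (Cd3e) and CD3 delta (Cd3d), with CD4 or CD8 as coreceptor. NK cells and cytotoxic T cells kill target cells with granules that hold granzymes such as granzyme A (Gzma), NKG7 is a protein of those granules, and Klrb1c encodes the NK1.1 antigen of C57BL/6 mice. B lymphocytes signal through immunoglobulin joined to CD79A and CD79B. The liver sinusoids normally hold many NK cells and T cells beside the resident macrophages, the Kupffer cells.

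A single slide carried all 6 arrays. Row 1 held the WT pools and row 2 the L1-Tg pools, which means that the effects of row and genotype cannot be told apart. Between 53.1% and 59.2% of spots were well above background, with the lowest share on WT replicate 1, and no spot was saturated. Hepatocyte markers identified the tissue, since all 10 listed were well above background on every array. Exocrine pancreas genes were high on L1-Tg replicate 2, where Cela1 reached 0.18 against -3.53 and -3.11 on the other L1-Tg arrays. The mouse Npc1l1 probe was well above background on 1 L1-Tg and 2 WT arrays. It is named for the mouse gene, and whether it also binds transcripts of the human transgene was not tested. Over the whole array, 29 of 22342 genes tested passed the adjusted threshold, 27 higher and 2 lower in L1-Tg mice.

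Values below are log2 signals relative to the 75th percentile of the same array, so a value of 0 equals that percentile. Differences are L1-Tg minus WT on the log2 scale, tested with limma, and p-values were adjusted over all genes tested. A probe's brightness depends on its sequence as well as on its target, so levels of different probes are not set against each other. In RNA of whole liver, fewer cells of a type and less RNA per cell cannot be told apart.

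Of the 8 genes tested, none passed the adjusted threshold of 0.05, where 0.13% of all genes tested did. Their adjusted p-values ran from 0.556 to 0.959. Before adjustment 1 of the 8, Cd3e, had a p-value under 0.05, against 8.86% of all genes tested. Cd3e was also the 1 member gene, or 12.5%, whose L1-Tg and WT arrays did not overlap, against 15.9% of all genes tested, or 8.62% for genes that were lower in L1-Tg mice. These shares lay near those of the array as a whole. The mean was higher in L1-Tg mice for 4 members and lower for 4, where 43.1% of all genes tested were higher. The split was 6 higher and 2 lower when arrays were scaled by their medians, where 66.3% of all genes were higher. It was 2 higher and 4 lower among the 6 members well above background on all arrays, against 41.8% higher among all such genes.

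**Figure D1:**
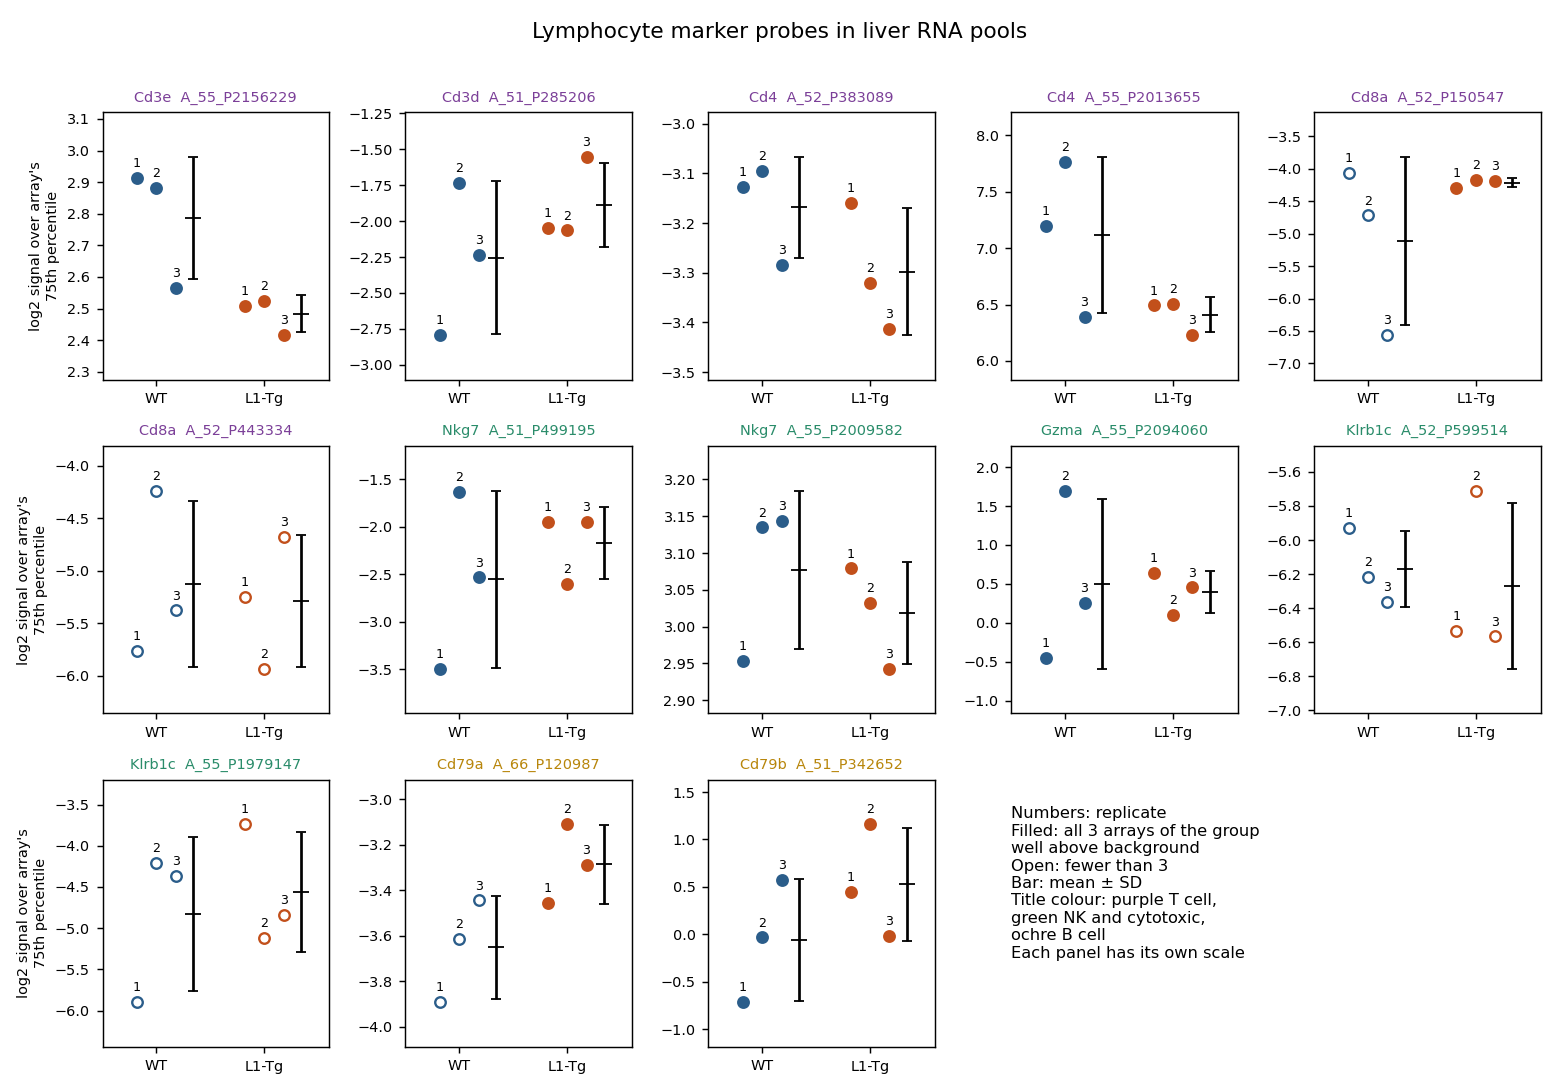
Log2 signal of the 13 probes of the 9 lymphocyte marker genes relative to each array's 75th percentile (vertical axes, a separate scale in each panel), with 1 point per RNA pool, numbered by replicate, for WT (blue) and L1-Tg (orange), and the mean ± SD of 3 pools as a bar. Filled points mark groups in which all 3 arrays were well above background. The groups overlapped for every tested probe except that of Cd3e.

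Among the T cell genes, Cd3e, an invariant chain of the T cell receptor complex, had 1 probe (A_55_P2156229). Its values in L1-Tg pools were 2.51, 2.52 and 2.42, and those in WT pools 2.91, 2.88 and 2.56, here and below in the order of replicates 1, 2 and 3. All L1-Tg pools lay below all WT pools, but WT replicate 3 stood only just above the L1-Tg range. The means were 2.48 ± 0.06 in L1-Tg and 2.79 ± 0.19 in WT mice (SD, n = 3), and the difference was -0.30 (SE 0.12, 95% confidence interval -0.60 to -0.01). In limma the p-value was 0.0453 before and 0.556 after adjustment. The median of all genes tested was -0.03, and when arrays were scaled by their medians, which raised that median to 0.08, the Cd3e difference was -0.19.

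Cd3d, the neighbouring gene in the mouse genome and a chain of the same receptor complex, gave -2.05, -2.06 and -1.55 in L1-Tg and -2.79, -1.73 and -2.23 in WT pools (A_51_P285206). WT replicate 1 was lowest and L1-Tg replicate 3 highest, and the groups overlapped. Its difference had the sign opposite to that of Cd3e, at 0.37 (SE 0.29, 95% interval -0.33 to 1.06, limma adjusted p = 0.689). Without WT replicate 1 it was 0.10. The log2 ratio of the Cd3e to the Cd3d probe was 0.67 lower in L1-Tg than in WT pools, and its 3 L1-Tg values, 4.55, 4.59 and 3.97, lay below the 3 WT values, 5.71, 4.61 and 4.80. With 3 pools against 3, the exact two-sided permutation test gave p = 0.1, the smallest this design allows, and 0.4 after adjustment over the 4 probe pairs compared.

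Cd4, the coreceptor of helper T cells, had 2 probes of very different brightness. No probe sequence was used here, so what each of them binds was not tested, and the gene value of Cd4 below is that of the brighter probe. The brighter one (A_55_P2013655) gave 6.49, 6.50 and 6.23 in L1-Tg and 7.20, 7.76 and 6.39 in WT pools. WT replicates 1 and 2 were above every L1-Tg pool, and WT replicate 3 fell inside the L1-Tg range. The difference was -0.71 (SE 0.33, 95% interval -1.51 to 0.10, limma adjusted p = 0.582), and WT pools varied more than L1-Tg pools, with SDs of 0.69 and 0.16. Leaving out 1 array gave differences from -1.07, without WT replicate 3, to -0.39, without WT replicate 2.

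The other Cd4 probe (A_52_P383089), printed on 10 spots of each array, gave -3.16, -3.32 and -3.41 in L1-Tg and -3.13, -3.09 and -3.28 in WT pools. The groups overlapped, and the difference was -0.13 (SE 0.11, limma adjusted p = 0.722 over all probes tested). All 10 of its spots were well above background on each array, and their SD within an array ran from 0.18 to 0.35. Both Cd4 probes had a lower mean in L1-Tg mice. On WT replicate 2 both were at their highest of the 6 arrays, by a wide margin on the brighter probe and by little on the dimmer. The difference of the brighter probe exceeded that of the dimmer by -0.58, which the exact permutation test of the probe ratio did not separate from 0 (p = 0.2, adjusted 0.4).

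Cd8a, the coreceptor of cytotoxic T cells, was near background. Its brighter probe (A_52_P150547) gave -4.30, -4.17 and -4.18 in L1-Tg and -4.06, -4.72 and -6.56 in WT pools, and it was well above background on all 3 L1-Tg arrays and on no WT array. WT replicate 1 nevertheless gave the highest value of all 6. The lowest signal that counted as well above background was -3.98 on that array and from -4.60 to -4.39 on the others. Set against the lowest signal that counted as well above background on each WT array, or the probe's own value where that was higher, the L1-Tg mean was at least 1.03-fold higher, a bound close to equality. The fitted difference was 0.90 (SE 0.60, limma adjusted p = 0.658), and without WT replicate 3 it was 0.17. With an alternative background correction (normexp) it was 0.018. The second Cd8a probe (A_52_P443334) was well above background on no array, at -5.25, -5.93 and -4.68 in L1-Tg and -5.76, -4.24 and -5.38 in WT pools, and was not tested. Of its 10 spots between 0 and 3 passed on an array, and their SD within an array ran from 0.34 to 0.93.

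**Figure D2:**
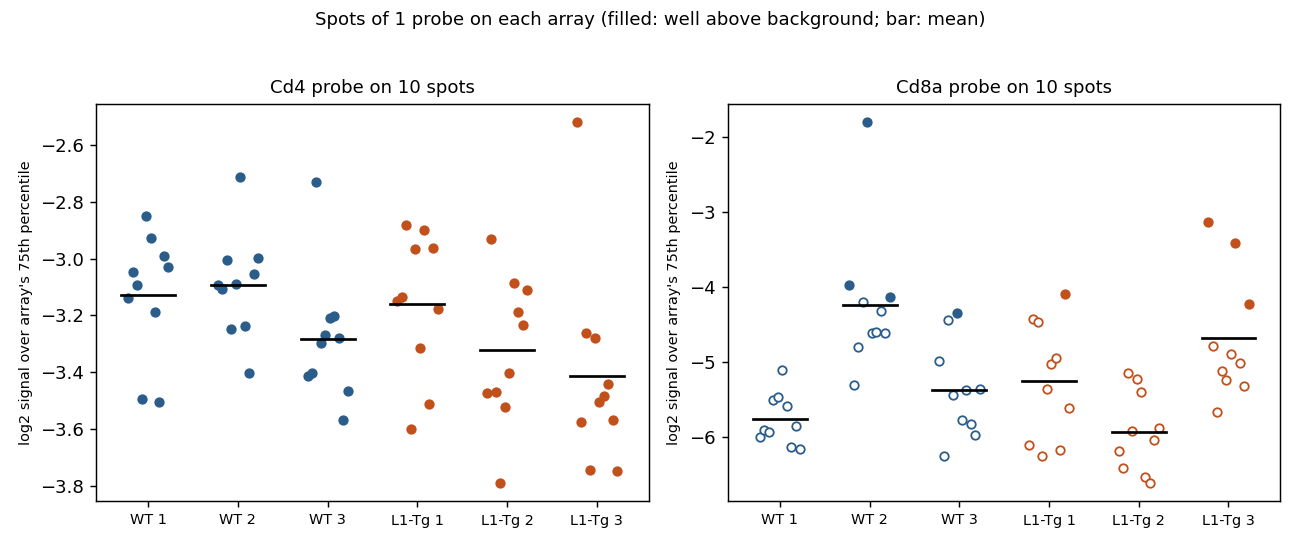
Log2 signal (vertical axes) of the single spots of the Cd4 and Cd8a probes that were printed 10 times, by array, with the mean as a line and filled points for spots well above background. All Cd4 spots passed on each array, whereas 0 to 3 of the 10 Cd8a spots did.

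Among the NK and cytotoxic genes, Nkg7 had 2 probes. The brighter one (A_55_P2009582) gave 3.08, 3.03 and 2.94 in L1-Tg and 2.95, 3.13 and 3.14 in WT pools. The groups overlapped within a narrow range. The difference was -0.06 (SE 0.10, 95% interval -0.30 to 0.18, limma adjusted p = 0.852). It became 0.05 when arrays were scaled by their medians, which raised the median of all genes tested to 0.08, so no direction is given.

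The dimmer Nkg7 probe (A_51_P499195) spread far more, with -1.95, -2.61 and -1.95 in L1-Tg and -3.50, -1.63 and -2.53 in WT pools. WT replicate 1 was lowest and WT replicate 2 highest, and both L1-Tg extremes lay between them. Its difference was 0.38 (SE 0.47, limma adjusted p = 0.803 over all probes tested) and turned to -0.09 without WT replicate 1. The exact permutation test of the ratio of both probes gave p = 0.6, with an adjusted value of 0.7.

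Gzma, the granzyme of NK cells and cytotoxic T cells, gave 0.64, 0.11 and 0.45 in L1-Tg and -0.45, 1.70 and 0.26 in WT pools (A_55_P2094060). WT replicates 1 and 2 were the lowest and the highest of the 6 arrays, so the L1-Tg pools fell within the WT range. The means were 0.40 ± 0.27 and 0.50 ± 1.09 (SD, n = 3). The difference was -0.10 (SE 0.52, 95% interval -1.37 to 1.16, limma adjusted p = 0.959). It was 0.0044 with arrays scaled by their medians, -0.58 without WT replicate 1 and 0.49 without WT replicate 2, so its sign rested on single pools.

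Klrb1c could not be tested. Its brighter probe (A_55_P1979147) gave -3.74, -5.12 and -4.84 in L1-Tg and -5.90, -4.21 and -4.37 in WT pools, and was well above background on L1-Tg replicate 1 alone. The other probe (A_52_P599514) was above background on no array, with values from -6.57 to -5.71. In the mouse genome Klrb1c lies between Klrb1 and Klrb1b, members of the same receptor family whose sequences are similar, and whether the probes tell them apart was not tested. Klrb1b was well above background on no array either.

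Of the B cell genes, Cd79a and Cd79b encode the signalling pair of the B cell receptor, and both means were higher in L1-Tg mice. Cd79a (A_66_P120987) gave -3.46, -3.11 and -3.29 in L1-Tg and -3.89, -3.61 and -3.45 in WT pools, and was well above background on 3 L1-Tg and 2 WT arrays. The groups overlapped by the smallest of margins, at L1-Tg replicate 1 and WT replicate 3. The difference was 0.36 (SE 0.15, 95% interval -0.0036 to 0.73), with a limma p-value of 0.0517 before and 0.560 after adjustment. Leaving out 1 array at a time gave differences from 0.24, without WT replicate 1, to 0.47, without WT replicate 3.

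Cd79b (A_51_P342652) gave 0.45, 1.16 and -0.02 in L1-Tg and -0.72, -0.03 and 0.57 in WT pools. L1-Tg replicate 2 was highest and WT replicate 1 lowest, and the groups overlapped. The difference was 0.59 (SE 0.41, 95% interval -0.40 to 1.58, limma adjusted p = 0.668). It was 0.27 without L1-Tg replicate 2 and 0.26 without WT replicate 1. The log2 ratio of the Cd79b to the Cd79a probe differed between genotypes by 0.23 (exact permutation test, p = 0.7, adjusted 0.7).

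**Figure D3:**
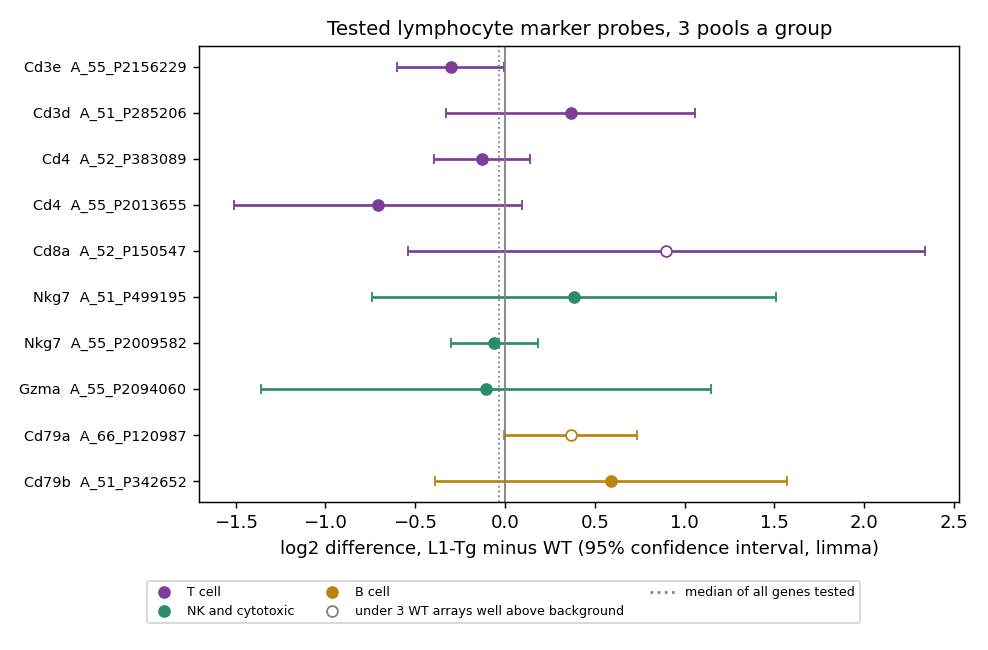
Log2 difference between L1-Tg and WT pools (horizontal axis) with its 95% confidence interval from limma for the 10 probes tested, coloured by lineage. The intervals of 9 probes include 0, that of Cd3e ends at -0.01, and no probe passed the threshold after adjustment.

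Set side by side, the lineages had the following medians, and the differences between lineages were not tested. The median difference was 0.03 over the 4 T cell genes, with 2 higher and 2 lower, and -0.30 over the 3 of them other than Cd8a, which passed the filter through L1-Tg arrays alone. It was -0.08 over the 2 NK and cytotoxic genes tested, both lower. With arrays scaled by their medians both were above 0 but below the median of all genes tested, 0.08. The Nkg7 value used was that of its brighter probe, and the dimmer probe stood at 0.38. The median was 0.48 over the 2 B cell genes, both higher, and Cd79a was well above background on 2 of 3 WT arrays. The median over all genes tested was -0.03, of which 43.1% had a difference above 0. With so few genes each, these medians are a description. At the level of probes, 5 of the 10 tested were higher and 5 lower. With arrays scaled by their medians 7 were higher and 3 lower, where 66.3% of all genes tested were higher. Of the 10 probes, 1 did not overlap between the groups, against 15.6% of all probes tested (8.6% for lower values). None passed the adjusted threshold, against 0.0917%.

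The methods of the study gave each gene a difference index, the difference of the mean normalized intensities divided by the sum of both SDs. They took a modulus above 0.7 as a change, and the index was computed here on linear signals. Of the 9 members 3 passed it, where 30.2% of all genes with an index did. Cd79a passed it upwards with an index of 0.92, and Cd3e and Cd4 downwards with -1.20 and -0.85. Over all genes 8.67% passed upwards and 21.5% downwards. The index is not a test and takes no account of the number of genes.

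Single arrays recurred as extremes across genes. WT replicate 1 held the lowest value of the 6 arrays for 6 of the 13 probes, namely Cd3d, the dimmer Nkg7 probe, Gzma, the brighter Klrb1c probe, Cd79a and Cd79b. WT replicate 2 held the highest value for 5 of the 13, namely both Cd4 probes, the dimmer Cd8a probe, the dimmer Nkg7 probe and Gzma. L1-Tg replicate 3 held the lowest value for 5, namely Cd3e, both Cd4 probes, the brighter Nkg7 probe and the dimmer Klrb1c probe. Over all genes tested, WT replicate 1 was lowest in 15.9%, L1-Tg replicate 3 lowest in 22.3% and WT replicate 2 highest in 20.5%.

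In wider lists of lineage genes, written with earlier results of these data known, WT replicate 1 was again the array most often lowest. L1-Tg replicate 3 was lowest for 2 T cell, 4 NK and cytotoxic and 2 B cell genes. Of 18 T cell genes with a value on every array, 11 were lowest on WT replicate 1 and 10 highest on WT replicate 2. Among 15 NK and cytotoxic genes 8 were lowest on WT replicate 1 and 7 highest on WT replicate 2. Among 19 B cell genes 12 were lowest on WT replicate 1 as well, but 12 were highest on L1-Tg replicate 2. L1-Tg replicate 2 was the highest array for 10.5% of all genes tested, and WT replicate 1 for 26.5%. As a median deviation from each gene's mean over the WT arrays, WT replicate 1 stood at -0.42 for T cell, -0.62 for NK and cytotoxic and -0.37 for B cell genes. WT replicate 2 stood at 0.47, 0.47 and 0.06, and L1-Tg replicate 2 at 0.07, -0.03 and 0.61. The part that the composition of the single pools had in this was not tested.

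**Figure D4:**
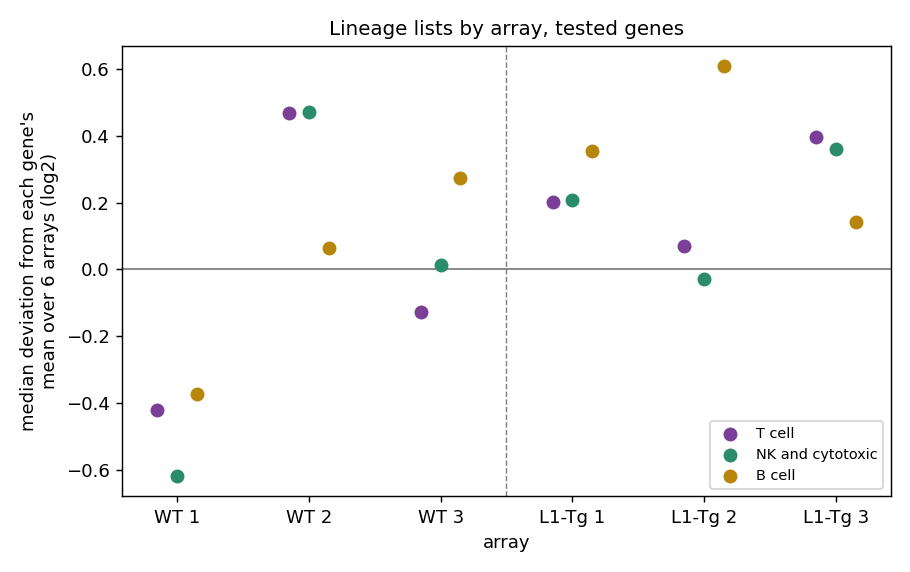
Median deviation (vertical axis, log2) of the tested genes of the T cell, NK and cytotoxic and B cell lists from each gene's mean over the WT arrays, by array. The axis label names the mean over 6 arrays, but the values plotted are relative to the mean over the WT arrays. All 3 lists are lowest on WT replicate 1, T cell and NK genes are highest on WT replicate 2, and B cell genes are highest on L1-Tg replicate 2.

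Of 30 T cell genes listed, 19 were tested, of which 15 had a higher and 4 a lower mean in L1-Tg mice, with a median difference of 0.19. None passed the adjusted threshold. The lowest adjusted p-value in limma was 0.372, for Tcf7, a transcription factor of naive and memory T cells. Tcf7 gave -2.85, -2.70 and -2.74 in L1-Tg and -3.19, -3.28 and -3.08 in WT pools, without overlap, and the difference was 0.42 (SE 0.10). Besides Tcf7 and Cd3e, the list genes with an unadjusted p-value under 0.05 were the membrane protein gene Ms4a4b, at 0.80 (SE 0.32) and 0.42 without WT replicate 1, and Zap70, the kinase that docks on CD3 chains, at -0.80 (SE 0.31). Zap70 overlapped between groups, with 2.47, 3.42 and 2.48 in L1-Tg and 3.76, 3.82 and 3.20 in WT pools. Of the 11 genes not tested, 6 were above background on no array, among them Ctla4 and Il7r.

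The T cell median rested on WT replicate 1. Without it 10 of 20 genes tested were higher, against 47.0% of all genes, and the median was -0.01. With no filter on dim signals 21 of 30 were higher, and among the 16 genes above background on all 6 arrays 12 were.

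Of the 29 NK and cytotoxic genes on the array, 15 were tested, and 10 were higher and 5 lower, with a median of 0.18. Txk, a kinase of T and NK cells, had the lowest adjusted p-value in limma, 0.542, with -3.91, -3.56 and -3.54 in L1-Tg and -5.31, -4.26 and -4.08 in WT pools. Only 1 of its WT arrays was well above background, and the fitted difference was 0.88 (SE 0.33), or 0.50 without WT replicate 1. Il2rb, a chain of the interleukin-2 and interleukin-15 receptors, differed by 0.59 (SE 0.31, adjusted p = 0.611 in limma) and Cd244a, an NK cell receptor, by -0.58 (SE 0.27, adjusted p = 0.582). Il2rb was at 0.28 without WT replicate 1 and 0.89 without WT replicate 2, and Cd244a at -0.27 without WT replicate 2. Granzyme K (Gzmk), the neighbour of Gzma in the genome and named here after its values were seen, gave -0.45, -0.61 and -0.79 in L1-Tg and 0.30, 2.92 and -0.41 in WT pools. The groups did not overlap, but the difference of -1.55 came largely from WT replicate 2, on which Gzma was highest too. Without WT replicate 1 the list median was -0.02, and among the 10 genes above background on all arrays 5 were higher and 5 lower.

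Of the 24 B cell genes 19 were tested, and 17 were higher in L1-Tg mice and 2 lower, with a median of 0.51. Ly6d, a surface protein gene of early B lineage cells that epithelia also express, gave 1.93, 0.55 and 1.73 in L1-Tg and -0.42, -0.54 and -0.07 in WT pools. These did not overlap, and the difference was 1.75 (SE 0.37, adjusted p = 0.330 in limma). Cd72, a coreceptor of B cells, differed by 0.64 (SE 0.23, adjusted p = 0.522). Ms4a1, which codes for the B cell antigen CD20 and is named here after its values were seen, had a difference of 0.91 and overlapped between groups.

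The B cell median kept its sign when any 1 array was left out, and lay between 0.24, without WT replicate 1, and 0.66, without WT replicate 3. Without L1-Tg replicate 2, on which exocrine pancreas genes also stood high (median deviation from the WT mean 3.76), it was 0.27. With no filter on dim signals 21 of 24 B cell genes were higher, and among the 15 genes above background on all arrays 13 were. With normexp background correction the median was 0.19. The size of the B cell median against that of the T cell and NK lists was not tested.

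**Figure D5:**
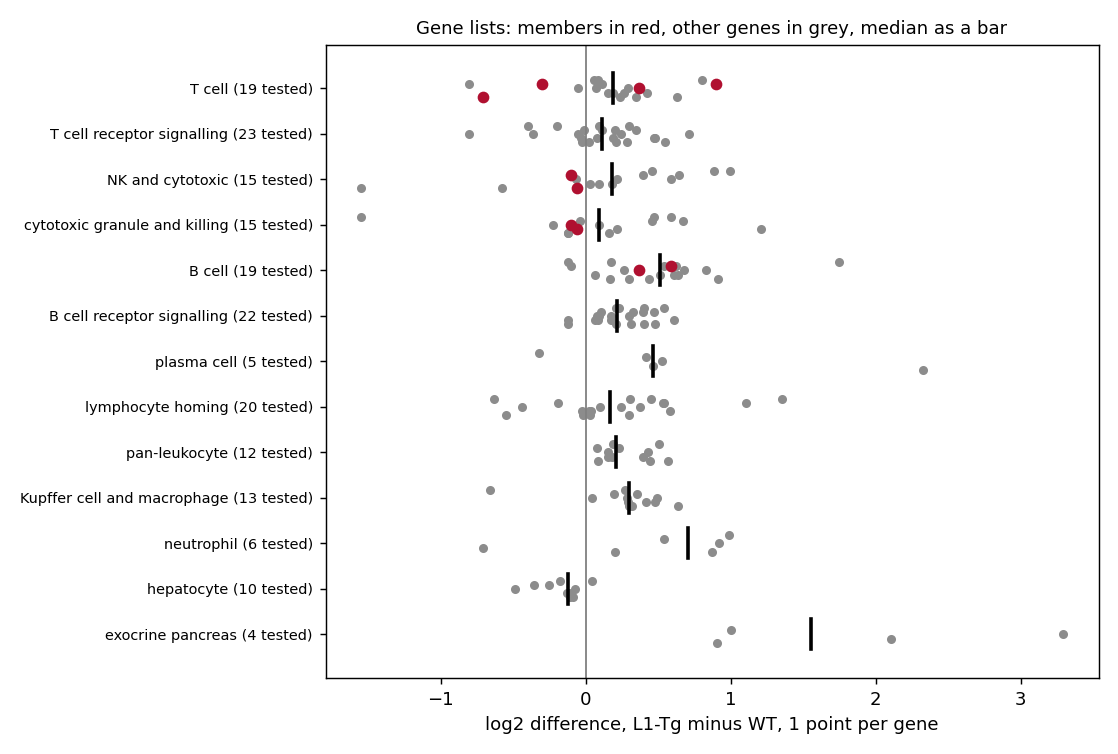
Log2 difference between L1-Tg and WT pools (horizontal axis) of each tested gene in 13 gene lists, with the 8 tested marker genes in red, other genes in grey and the list median as a bar. The median lies at 0.19 for T cell, 0.18 for NK and cytotoxic and 0.51 for B cell genes, and no gene shown passed the adjusted threshold.

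The signalling genes behind these receptors spread around smaller medians. Of 23 T cell receptor signalling genes tested 15 were higher, with a median of 0.11 that was 0.0066 without WT replicate 1. Of 22 B cell receptor signalling genes 20 were higher, with a median of 0.22. The transcription factor gene Nfatc2 differed by 0.71 (SE 0.26), the adaptor gene Pik3ap1 by 0.33 (SE 0.10) and the phosphatase gene Inpp5d by 0.40 (SE 0.16). The adjusted p-values of these 3 lay between 0.486 and 0.547 in limma.

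Plasma cells, the antibody-secreting descendants of B cells, were represented by 5 tested genes, of which 4 were higher, with a median of 0.46. Derl3, a gene of protein quality control in the endoplasmic reticulum that secretory cells in general use, gave 1.35, 1.85 and 2.56 in L1-Tg and 0.05, -0.23 and -1.05 in WT pools. Its difference of 2.33 (SE 0.39, adjusted p = 0.204 in limma) stood well apart from those of Jchain, the joining chain of secreted antibodies, at 0.52 (SE 0.28), and Mzb1, a chaperone of antibody assembly, at 0.42 (SE 0.23). With 1 array left out Jchain ranged from 0.31, without L1-Tg replicate 1, to 0.78, without L1-Tg replicate 3, and Mzb1 from 0.23, without L1-Tg replicate 2, to 0.64, without L1-Tg replicate 3.

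Genes of the killing machinery gave no common sign, with 8 of 15 higher and a median of 0.09. Unc13d and Stx11, which act in granule release, differed by 0.47 (SE 0.09) and 1.21 (SE 0.37), and Stx11 was well above background on only 1 WT array. The death ligand gene Tnfsf10 gave -0.23, -0.36 and -0.13 in L1-Tg and -1.12, -0.94 and -0.67 in WT pools, a difference of 0.67 (SE 0.14) without overlap. Their adjusted p-values in limma were 0.288, 0.486 and 0.322.

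Homing genes, which guide lymphocytes into tissue, were higher in 14 of 20 cases, with a median of 0.17 that was 0.040 without WT replicate 1. The chemokine gene Cxcl12 gave 5.95, 6.09 and 5.95 in L1-Tg and 6.54, 6.60 and 6.49 in WT pools. These groups were tight and did not overlap, and the difference was -0.55 (SE 0.09), with an adjusted p-value of 0.204 in limma. Cxcl10, a chemokine gene that interferon induces and that draws activated T and NK cells, gave 2.98, 1.80 and 2.68 in L1-Tg and 0.37, 1.71 and 1.33 in WT pools. The L1-Tg pools were all above the WT pools, and the difference was 1.35 (SE 0.43, adjusted p = 0.496 in limma). The lymph node homing receptor gene Ccr7 differed by 0.53 (SE 0.18), with an adjusted p-value of 0.520 in limma.

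Markers of leukocytes in general and of other cell types were read beside these lists. All 12 pan-leukocyte genes were higher in L1-Tg mice, with a median of 0.21, and Ptprc, which encodes CD45, differed by 0.50 (SE 0.20, adjusted p = 0.547 in limma). Without WT replicate 1 the count was 10 of 12, the median 0.13 and the Ptprc difference 0.31. Of 13 Kupffer cell and macrophage genes 12 were higher (median 0.30), and 5 of 6 neutrophil genes (median 0.71), with S100a8 at 0.99. With no filter on dim signals 7 of 10 neutrophil genes were higher (median 0.38). Without WT replicate 1 the macrophage and neutrophil medians were 0.086 and 0.39, and without L1-Tg replicate 2 the neutrophil median was 0.38. All 4 exocrine pancreas genes were higher (median 1.55), but 2 of 4 were without L1-Tg replicate 2 (median 0.45). Of 10 hepatocyte genes 9 were lower, with a median of -0.12. None of these genes passed the adjusted threshold, and the part of these cell types in the lymphocyte values was not tested.

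By root mean square distance between profiles centred on their own mean over the 6 arrays, the genes closest to Nkg7 among 22342 were Syap1, Zfp574 and Mfsd10, at 0.0098 to 0.019. Closest to Cd3e, apart from 1 transcript named by its position alone, were Cabp5 and Hadha, both at 0.037, and closest to Cd79a were Cchcr1, Emilin2 and AK006351, at 0.070 to 0.077. No gene of the 3 lineage lists was among them. With only 3 genes taken for each out of 22342, this does not bear on whether markers follow their lineage.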

How the data were processed

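Per the labels, RNA pools from 2 or 3 mice were labelled with Cy3, and the authors extracted spot intensity with Agilent Feature Extraction (10.10.1.1 in the file headers). The deposited scanner files gave the processed signal, an intensity after the software's background correction, with flags for spots well above background and for non-uniform spots. The deposited value table holds the same intensity multiplied by 1 factor per array (2.46 to 2.98), with unstated centring, and served as an alternative. Positions on the array were not used, since the reference table is of another build. Probes were named through RefSeq accessions (27235 of 28685 matched).

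Signals were scaled to each array's 75th percentile (297 to 378) of non-control spots and taken to log2, non-uniform spots were left out, and repeat spots of a probe were averaged. A probe counted as well above background where over 50% of its spots were, and a gene took its brightest probe. The test was limma 3.58.1 (R 4.3.3), with Benjamini-Hochberg adjustment and a threshold of 0.05, over genes above background in every array of 1 genotype or both. The fit was tested on simulated data. Members, gene lists and named genes were chosen with earlier results of these data known. Besides the members, genes were named for an unadjusted p-value under 0.05, for being among the 3 lowest p-values of a lymphocyte list or the 2 largest differences of another list, or as nearest profiles. Some genes that this rule names are not reported here. Same-numbered L1-Tg and WT arrays deviated together with r from -0.16 to 0.11, so the numbers were not taken as pairs. Alternatives varied the scaling, background correction, filter, probe choice, test, block and arrays. The precision is limited by 3 arrays a group.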

Additional observations from a re-analysis of the deposited data

How the results depend on the processing

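No member gene or probe passed the adjusted threshold under any alternative run, and the lowest adjusted p-value was 0.196 for a gene, without WT replicate 3. The count of genes called over the array was 29. It was 10 with no filter on dim signals, 19 with the mean of a gene's probes, 0 with variances not moderated by limma (1834 before adjustment), and 15 to 36 with 1 array left out. With the replicate number as a block it was 11, and the block called no member. The B cell list median, 0.51, was 0.19 with normexp background correction. Leaving out 1 array gave medians of 0.24 to 0.66 for B cell, -0.01 to 0.44 for T cell and -0.02 to 0.42 for NK and cytotoxic genes. Signs turned for Nkg7 with median scaling (0.049) and with the mean of its probes (0.16), for its dimmer probe without 1 array (-0.087 to 0.85), and for the dimmer Cd4 probe with normexp correction (0.0089). Gzma turned with median scaling (0.0044) and when 1 array was left out (-0.58 to 0.49). Median scaling raised the median of all genes tested from -0.03 to 0.08. Among other listed genes Flt3 (-0.74 to 0.089), Lyve1 (-0.048 to 0.73) and Ppbp (-0.38 to 0.62) turned when 1 array was left out. In each, the cause was not tested. The difference index was passed by 3 or 4 members with no scaling or with 1 array left out. Klrb1c and the second Cd8a probe lay at background, so no difference could be measured for them.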

Other observations

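A split of the tested list genes by their mean signal, made after their values were seen and given without a test, separated signs within the T cell and NK lists. The 3 T cell genes with a mean above the array's 75th percentile, Zap70, Cd4 and Cd3e, were all lower in L1-Tg mice (median -0.71), whereas 15 of the 16 below it were higher (median 0.25). Of the NK and cytotoxic genes 1 of 5 above it was higher (median -0.10) and 9 of 10 below it (median 0.43). B cell genes were mostly higher on both sides, 5 of 6 above and 12 of 13 below. Several dim genes passed the filter through L1-Tg arrays alone. Among dim genes well above background on all 6 arrays, 12 of 13 T cell genes (median 0.24), 4 of 5 NK and cytotoxic genes (median 0.18) and 8 of 9 B cell genes (median 0.44) were higher. The Cd4 value is that of its brighter probe. Over all genes tested 42.1% above and 44.0% below the percentile were higher.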
